A study of Mus musculus with 10 samples.

Results

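Ovarian hormone receptors and the paracrine signals that act downstream of them were described in the mammary gland of mice fed a control or a high level of folic acid (FA). The 9 genes, of 46983 in the count files and of 15610 tested, were *Esr1*, *Pgr* and *Prlr* (the receptors of oestrogen, progesterone and prolactin), *Greb1* and *Areg* (responsive to oestrogen), and *Wnt4*, *Tnfsf11*, *Tnfrsf11a* and *Calca* (linked to the progesterone response). They were chosen by name and role, with the counts of these libraries already known, so every fold change and p-value of theirs below is a description and not independent evidence. Each symbol matched 1 Ensembl identifier, and all 9 passed the filter on low counts.

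Virgin female C57BL/6 mice ate an AIN93M-based diet holding 1 mg of FA per kg (CFA, the control) or 5 mg per kg (HFA, the high level) for 4 weeks, then all of them ate the same AIN93M maintenance diet until post-natal day 130. Whole right thoracic mammary fat pads were sequenced, 5 libraries per diet, which hold fat, epithelium, stroma and, where the dissection included them, muscle and lymph node. The stage of the oestrous cycle of each mouse is not given in the sources used here, nor is the cage in the labels. Libraries are named by diet and by order of deposition, and neither the labels nor the study's methods say which libraries, if any, shared a cage or a batch.

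In the mammary epithelium, oestrogen and progesterone bind receptors inside a subset of luminal cells, the hormone-sensing cells. These cells in turn release signals that act on neighbouring cells. Amphiregulin, made from *Areg*, acts through the EGF receptor of the stroma and is needed for ducts to grow, while WNT4 and RANKL, made from *Wnt4* and *Tnfsf11*, carry the progesterone signal to basal and progenitor cells and support side branching. RANK, the receptor of RANKL, is made from *Tnfrsf11a*. *Greb1* is a classical oestrogen receptor target, and *Calca* encodes calcitonin and the calcitonin gene-related peptide, of which calcitonin is known to be induced by progesterone in mammary epithelium. Progesterone receptor is itself induced by oestrogen.

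The stretch before the transcription start was read for the 4 genes with the largest fold between their lowest and highest library, since these regions are where receptors could act. All 9 members had RefSeq promoter windows (GRCm38.p6, 250 bases before to 50 after a start, 13 windows for the 9 genes). The 250 bases before the start are printed 5′ to 3′ on the strand of the gene, from the annotated start furthest upstream for *Greb1*, with capitals for the core motif of the oestrogen receptor, GGTCA or its reverse complement TGACC.
Calca (chr7:114636358-114636607, minus strand): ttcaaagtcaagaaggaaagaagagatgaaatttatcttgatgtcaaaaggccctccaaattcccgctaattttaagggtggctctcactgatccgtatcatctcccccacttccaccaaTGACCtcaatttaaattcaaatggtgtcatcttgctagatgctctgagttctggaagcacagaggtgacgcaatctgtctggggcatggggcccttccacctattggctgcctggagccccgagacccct
Tnfsf11 (chr14:78308044-78308293, minus strand): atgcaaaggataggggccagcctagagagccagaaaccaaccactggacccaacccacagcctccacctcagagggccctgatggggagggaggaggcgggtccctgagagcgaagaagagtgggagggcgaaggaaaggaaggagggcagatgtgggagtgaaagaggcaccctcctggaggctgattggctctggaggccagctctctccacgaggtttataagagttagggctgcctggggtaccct
Greb1 (chr12:16800887-16801136, minus strand): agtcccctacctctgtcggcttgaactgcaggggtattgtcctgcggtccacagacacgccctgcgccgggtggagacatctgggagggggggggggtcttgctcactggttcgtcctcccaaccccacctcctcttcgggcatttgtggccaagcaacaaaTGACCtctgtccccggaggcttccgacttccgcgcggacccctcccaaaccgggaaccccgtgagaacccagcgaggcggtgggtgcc
Areg (chr5:91139349-91139598, plus strand): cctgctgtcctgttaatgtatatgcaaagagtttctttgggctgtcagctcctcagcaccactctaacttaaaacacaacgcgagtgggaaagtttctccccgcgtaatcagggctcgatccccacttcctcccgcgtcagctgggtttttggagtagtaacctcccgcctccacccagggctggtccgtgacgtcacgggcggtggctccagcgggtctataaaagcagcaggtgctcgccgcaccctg
The *Calca* stretch held 1 core motif, starting 130 bases before the transcription start, and the *Greb1* stretch held 1, starting 88 bases before it. The *Tnfsf11* and *Areg* stretches held none, although the *Areg* window had TGACC at base 25 after the start. Over all windows of the 300-base length, 5 of the 13 member windows held the core motif, beside 40.5% of the 32851 windows in the genome. The full oestrogen response element (GGTCA, any 3 bases, TGACC) was in 0 of the 13 and in 0.07% of all windows. The STAT motif (TTC, any 3 bases, GAA), the kind of site used downstream of the prolactin receptor, was in 2 of the 13, the second windows of *Esr1* and *Prlr*, beside 8.3% of all windows. The FOXA motif (TGTTTAC or its reverse complement) was in 1, the second *Prlr* window, beside 3.65%. Both strands were read, and each full response element also counts as a core motif. A match is a run of letters in the window and not a measured site.

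The depth was 7672199 to 14829291 counts on genes per library. In CFA 2, CFA 5 and HFA 5 the B cell markers *Ms4a1*, *Cd79a*, *Cd79b* and *Pax5* summed to 208.2, 521.7 and 1641 counts per 1000000 scaled reads (CPM), against 1.85 to 3.54 CPM in the other 7 libraries. The summed T cell and lymph node stroma markers were also highest in these 3 libraries. The 5 adipocyte markers summed to 8546 to 14518 CPM in all 10, and the 5 skeletal muscle markers to 6117 to 37612 CPM in CFA, 37464 to 49639 CPM in HFA 1 to HFA 4 and 634.7 CPM in HFA 5. All 5 muscle markers had higher means in HFA (log2 fold changes 0.58 to 0.80, 0 past the adjusted threshold). Epithelial content, taken as the mean log2 CPM of the luminal keratins *Krt8* and *Krt18*, was lowest in CFA 5 (6.31) and HFA 5 (6.07) and lay between 7.72 and 8.67 in the other 8, CFA 2 being the highest. The 6 further epithelial markers (*Epcam*, *Krt7*, *Krt19*, *Cdh1*, *Cldn3* and *Cldn4*) summed to 196.4 to 919.3 CPM in HFA and 328.1 to 1359 in CFA, so every library held epithelium. *Krt8* and *Krt18* had log2 fold changes between diets (HFA over CFA) of -0.20 ± 0.47 (SE) and -0.09 ± 0.46. Of the 6 further epithelial markers, *Epcam* (-0.96), *Cdh1* (-0.97) and *Cldn3* (-0.82) were further from even. *Krt19* (-0.12), *Cldn4* (0.05) and *Krt7* (0.17) were near even. Basal markers were lower in HFA for 5 of 5 (median -0.87) and luminal progenitor markers for 4 of 5 (median -0.73), and 0 of all these passed the adjusted threshold. In such bulk tissue, fewer cells of a type and less RNA per cell cannot be told apart.

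Of the 3 hormone receptors, *Esr1* was the steadiest. It measured 100.3, 109, 85.9, 135.3 and 91.7 CPM in CFA 1 to CFA 5 and 88.4, 79.5, 145.7, 132.4 and 35.1 CPM in HFA 1 to HFA 5. The diets overlapped, HFA 5 was the lowest library and HFA 3 the highest. The log2 fold change was -0.12 ± 0.32 (SE, n = 5 per diet, edgeR quasi-likelihood adjusted p = 0.938). It was 0.05 without HFA 5, and so too without the 3 libraries that held B cell markers, so that no direction between diets held.

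*Pgr*, the progesterone receptor, varied 9.93-fold between libraries. The CFA libraries measured 35.5, 43.7, 17.4, 22.5 and 14.03 CPM and the HFA libraries 139.3, 64.8, 14.2, 59.2 and 15.1 CPM. HFA 1, HFA 2 and HFA 4 lay above every CFA library, while HFA 3 and HFA 5 lay at the level of the lowest CFA libraries. The mean was 26.6 ± 12.5 CPM (SD, n = 5) in CFA and 58.5 ± 51.0 in HFA, and the log2 fold change was 1.14 ± 0.61 (SE, edgeR quasi-likelihood adjusted p = 0.693). It was 0.53 without HFA 1, the highest library.

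*Prlr*, the prolactin receptor, had the highest CPM of the 9. It measured 284.2, 410.3, 254.2, 474.7 and 95.5 CPM in the CFA libraries and 594.9, 314.4, 366.2, 497.0 and 76.6 CPM in the HFA libraries. CFA 5 and HFA 5, the libraries of lowest epithelial content, were lowest in both diets, and the ranges overlapped almost wholly. Its log2 fold change was 0.28 ± 0.52 (SE, edgeR quasi-likelihood adjusted p = 0.910).

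Neither oestrogen target among the members passed the adjusted threshold between diets, and their fold changes were not compared with one another by a test. *Greb1* was counted by few reads, 9, 12, 3, 21 and 3 in CFA 1 to CFA 5 and 63, 98, 2, 13 and 8 in HFA 1 to HFA 5, or 0.62, 1.32, 0.20, 1.52 and 0.22 CPM against 6.97, 8.45, 0.28, 1.19 and 0.51 CPM. HFA 1 and HFA 2 stood above all the other libraries, and the remaining 3 HFA libraries lay within the CFA range. The log2 fold change was 2.19 ± 0.95 (SE, edgeR quasi-likelihood adjusted p = 0.670), and it ranged from 1.54 without HFA 2 to 2.62 without CFA 4. Where reads are this few, counting error adds to the spread between mice.

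*Areg* also split both diets. It measured 56.4, 60.9, 22.4, 7.37 and 34.1 CPM in the CFA libraries and 75.5, 75.7, 2.98, 6.58 and 28.7 CPM in the HFA libraries. The same 2 libraries that were highest for *Greb1*, HFA 1 and HFA 2, were highest for *Areg*, and CFA 4, HFA 3 and HFA 4 were the 3 lowest. With 36.2 ± 22.6 CPM (SD, n = 5) in CFA and 37.9 ± 35.8 in HFA, the log2 fold change was 0.07 ± 0.83 (SE, edgeR quasi-likelihood adjusted p = 0.987), and its sign turned when CFA 3, CFA 4, HFA 1 or HFA 2 was left out (-0.35 without HFA 2).

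Of the genes linked to the progesterone response, *Wnt4* was near even. The CFA libraries measured 36.6, 44.8, 26.3, 36.3 and 27.5 CPM and the HFA libraries 41.1, 24.6, 35.8, 40.0 and 6.37 CPM. HFA 5 was far below the rest, and the other 4 HFA libraries fell within or near the CFA range. The log2 fold change was -0.22 ± 0.41 (SE, edgeR quasi-likelihood adjusted p = 0.912), -0.001 without HFA 5 and 0.09 without the 3 libraries that held B cell markers.

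*Tnfsf11*, the gene of RANKL, was present or nearly absent from one library to the next. The counts were 258, 216, 69, 2 and 235 in CFA 1 to CFA 5 (17.7, 23.7, 4.49, 0.14 and 17.5 CPM) and 0, 3, 0, 0 and 208 in HFA 1 to HFA 5 (0, 0.26, 0, 0 and 13.2 CPM). A count of 0 allows up to 0.332, 0.426 and 0.274 CPM in HFA 1, HFA 3 and HFA 4 (3 counts per library, counting error only). The CFA libraries other than CFA 4 therefore lay above every HFA library other than HFA 5, and CFA 4 lay with the low HFA libraries. The log2 fold change was -2.16 ± 1.495 (SE, edgeR quasi-likelihood adjusted p = 0.761), and without HFA 5 it was -7.22 (adjusted p = 0.0657).

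T cells and lymph node stroma also make RANKL. The 3 libraries with B cell markers had 13.2 to 23.7 CPM of *Tnfsf11*, with summed T cell markers of 149 to 824.5 CPM and summed lymph node stroma markers of 65.3 to 575.3 CPM. In the other 7 the T cell markers summed to 5.67 to 13.3 CPM, each of the 6 below its level in those 3 libraries. Of these 7, CFA 1 (13.3 CPM) and CFA 3 (11.9 CPM) had the highest summed T cell markers and also the highest *Tnfsf11*, at 17.7 and 4.49 CPM, while CFA 4 and the 4 HFA libraries held 0 to 0.26 CPM of *Tnfsf11*. The part of lymphoid cells in the *Tnfsf11* level was not tested. Among the 7 libraries *Tnfsf11* did not pass the filter on low counts.

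*Tnfrsf11a*, the gene of its receptor RANK, varied 3.06-fold, the least of the members. It measured 12.6, 10.3, 12.6, 9.10 and 7.61 CPM in the CFA libraries and 8.19, 10.6, 9.22, 4.94 and 15.1 CPM in the HFA libraries. HFA 5 was the highest and HFA 4 the lowest, and the diets overlapped. The log2 fold change was -0.12 ± 0.28 (SE, edgeR quasi-likelihood adjusted p = 0.929) and 0.05 without HFA 4.

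*Calca* was the member that separated the diets. The CFA libraries measured 116.3, 152.8, 98.8, 11.4 and 50.2 CPM and the HFA libraries 4.32, 3.02, 8.80, 2.56 and 1.27 CPM. Every HFA library lay below every CFA library, although CFA 4 (158 counts) and HFA 3 (62 counts) came close to one another. Means were 85.9 ± 55.6 CPM (SD, n = 5) in CFA and 3.99 ± 2.90 in HFA, the log2 fold change was -4.46 ± 0.73 (SE), and *Calca* was at rank 4 of the 15610 genes by p (edgeR quasi-likelihood adjusted p = 0.376). The basal and luminal progenitor markers given above and the muscle markers also differed in mean between diets, with 0 past the adjusted threshold. Their part in the *Calca* difference was not tested.

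**Figure D1:**
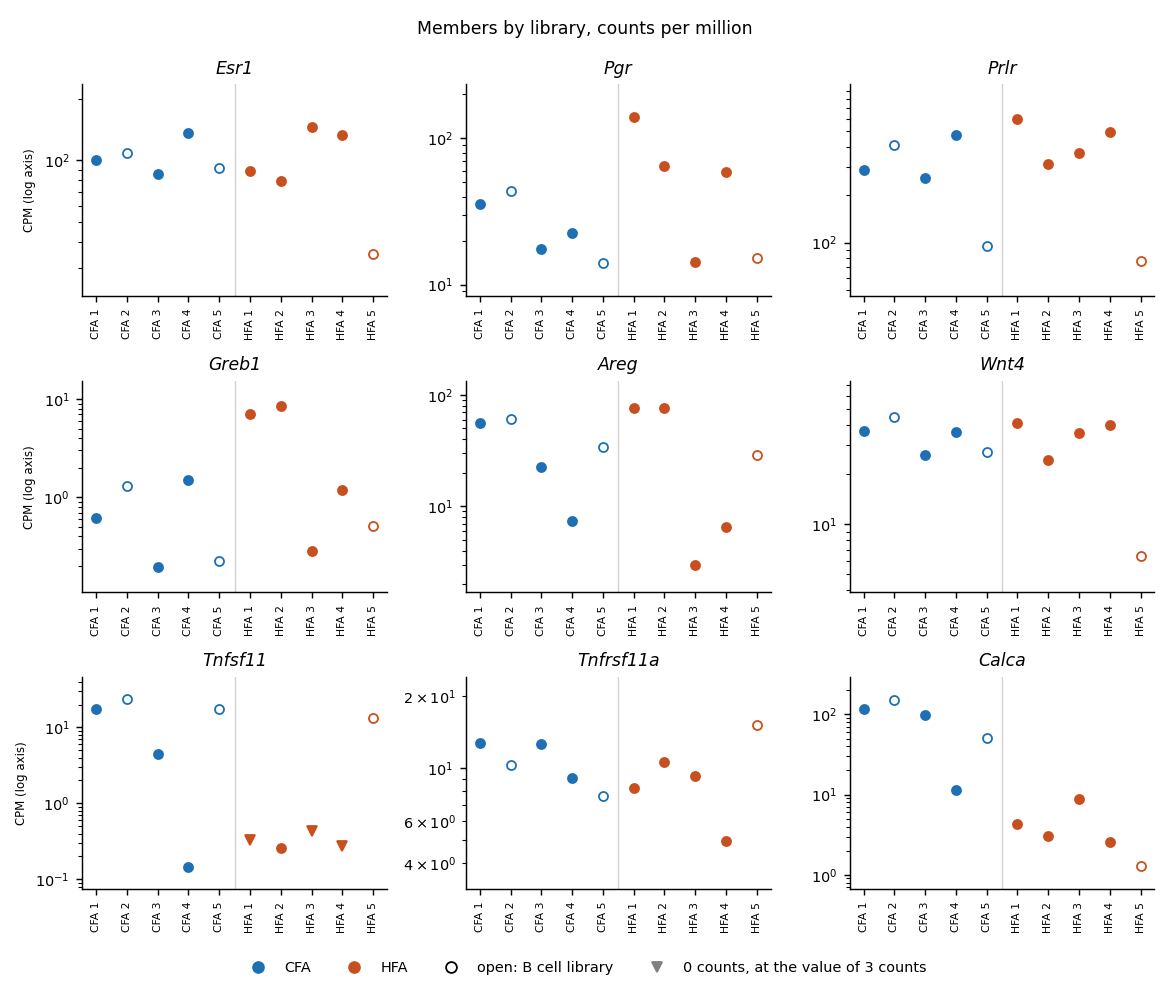
CPM of the 9 members (y, log axis) in each library (x), CFA in blue and HFA in orange, with open symbols for the 3 libraries that held B cell markers and triangles where 0 reads were counted. *Calca* lies at 11.4 to 152.8 CPM in CFA and 1.27 to 8.80 CPM in HFA, and *Tnfsf11* at 0 to 0.26 CPM in all HFA libraries but HFA 5.

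Counts over the list were set beside those over all genes. After adjustment over all genes 0 of the 9 members passed 0.05 by the edgeR quasi-likelihood test, as did 0 of 15610 genes (0%). At an unadjusted p under 0.05 there were 2 members, *Greb1* and *Calca*, beside 1149 genes (7.36%). *Calca* was 1 member with every HFA library below every CFA library, as were 38 genes (0.243%), and 0 members had every HFA library above, as did 117 genes (0.75%). The median log2 fold change of the members (5 lower and 4 higher in HFA) was -0.12, beside 0.06 over all genes.

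In the comparison by diet alone, the choice of test moved the *Calca* call and no other member's. It passed the adjusted threshold by the edgeR likelihood ratio test (adjusted p = 8.6e-06), which called 33 genes (0.211%), by DESeq2 (adjusted p = 4.0e-08), which called 60 genes (0.384%), and by limma voom with quality weights (adjusted p = 0.0426), which called 1037 genes (6.64%). It did not by limma voom without weights (adjusted p = 0.690, 0 genes). Without CFA 2, CFA 5 and HFA 5 its log2 fold change was -4.07 and passed by the edgeR quasi-likelihood test (adjusted p = 0.0428), with 469 of 15759 genes (2.98%). Sample titles carry a second digit whose meaning is not given in the sources used here. It is 2 for CFA 1, CFA 2 and HFA 1 to HFA 3 and 3 for the rest, and the log2 difference of *Calca* was -4.73 within the first of these sets and -4.29 within the second. That of *Tnfsf11* was -6.51 and -0.98, that of *Greb1* 1.49 and 0.63 and that of *Pgr* 0.36 and 0.75 in the same order.

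The levels were then read relative to epithelial content. With the mean log2 CPM of *Krt8* and *Krt18* as a term beside diet, the slope is the log2 change of a gene per doubling of the 2 keratins. The slopes of the keratins themselves (1.02 and 0.98) were fixed by construction, since the 2 make up the term. *Prlr* followed epithelial content most closely, with a slope of 1.12 ± 0.16 (SE, edgeR quasi-likelihood adjusted p = 0.0116). It was 1 of 9 members with a positive slope past the threshold, beside 837 genes (5.36%), and 0 members had a negative one, beside 754 genes (4.83%). The *Prlr* slope did not pass without CFA 5 (1.19, adjusted p = 0.0680) or without HFA 5 (0.96, adjusted p = 0.109), the libraries of low epithelial content, or without the 3 libraries that held B cell markers (0.98, adjusted p = 1), where 0 genes passed.

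Slopes of *Pgr* (0.92 ± 0.28 SE) and *Wnt4* (0.66 ± 0.19 SE) missed the threshold (edgeR quasi-likelihood adjusted p = 0.0629 and 0.0585). By the same test *Pgr* passed without HFA 3 (adjusted p = 0.0291), when 513 of 15815 genes passed with a slope of either sign. *Wnt4* passed without CFA 2 (adjusted p = 0.0440), when 3699 of 15716 genes did. Both passed by DESeq2 (adjusted p = 0.0112 and 0.00860), which called 3124 of 15610 genes. The *Wnt4* slope was 0.31 without HFA 5 (adjusted p = 0.296) and 1.16 without CFA 5 (adjusted p = 0.0680), so its size rested on these libraries of low epithelial content. The slopes of the others were 0.41 for *Esr1*, 1.31 for *Greb1*, 0.30 for *Areg*, 0.70 for *Calca*, -0.15 for *Tnfrsf11a* and -1.55 for *Tnfsf11*. For *Tnfsf11* the slope rested on HFA 5, being 0.01 without it.

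**Figure D2:**
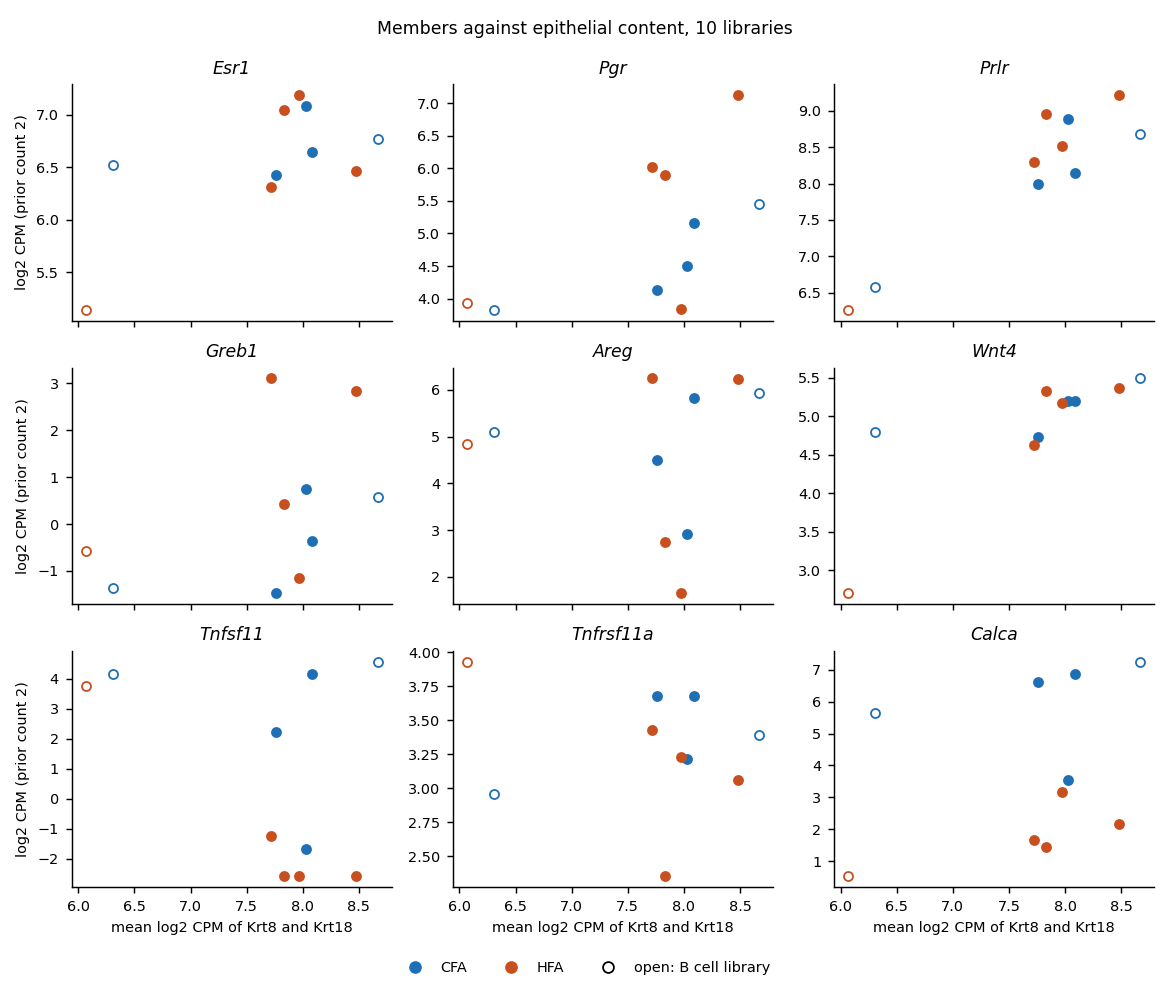
Log2 CPM of each member (y) against epithelial content (x, mean log2 CPM of *Krt8* and *Krt18*), 1 point per library, CFA in blue and HFA in orange, open where B cell markers were held. *Prlr* climbs from the 2 libraries near 6 to the rest with a slope of 1.12, whereas *Areg* and *Tnfsf11* spread widely at like epithelial content.

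At equal epithelial content the differences of all 9 members between diets kept their signs. *Calca* was lower in HFA by a log2 fold change of -4.41 ± 0.64 (SE, edgeR quasi-likelihood adjusted p = 0.0979), *Tnfsf11* had -4.53 ± 1.81 (adjusted p = 0.439), *Greb1* 2.37 ± 0.82 (adjusted p = 0.399) and *Pgr* 1.11 ± 0.44 (adjusted p = 0.436). These 4 members had an unadjusted p under 0.05, as did 1620 genes (10.4%), and 0 of the 9 passed after adjustment, where 1 gene of all did (0.00641%). The fold changes of the other 5 lay between -0.30 (*Wnt4*) and 0.35 (*Prlr*).

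Calls at equal epithelial content depended on single libraries. *Calca* passed without CFA 4 (adjusted p = 0.00648), when 5 genes passed (0.0316%), and without HFA 5 (adjusted p = 0.0333), when 1219 genes did (7.75%). *Tnfsf11* also passed without HFA 5 (-7.22, adjusted p = 0.0386). By DESeq2, which called 229 genes (1.47%), both passed (*Calca* adjusted p = 5.8e-11 and *Tnfsf11* 0.00582). With the *Krt8* and *Krt18* reads as the offset in place of library size, the *Tnfsf11* log2 fold change was -0.89.

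**Figure D3:**
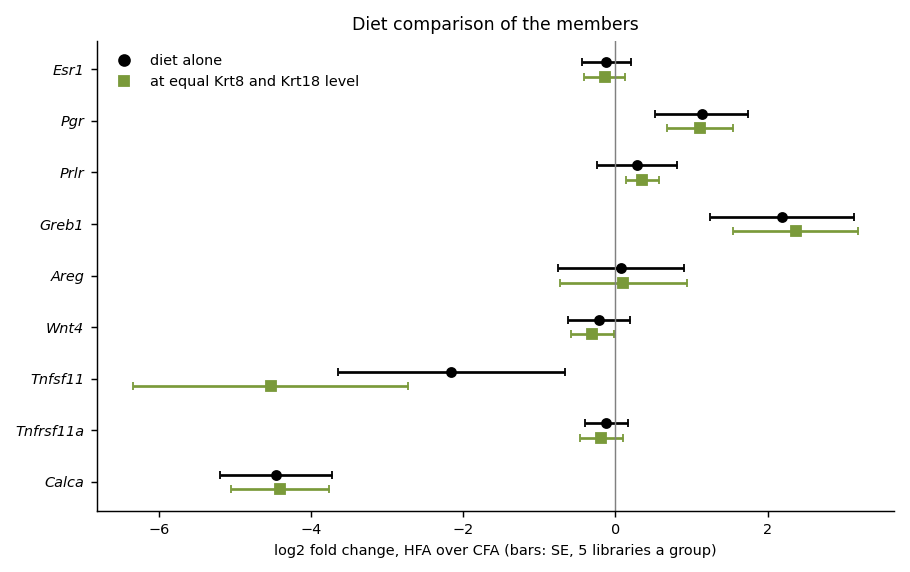
Log2 fold changes of the members, HFA over CFA (x, bars are SE, 5 libraries per diet), from diet alone (black circles) and with epithelial content as a further term (green squares). *Calca* lies at -4.46 and -4.41, and *Tnfsf11* moves from -2.16 to -4.53 with the wider error.

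Reads of a member per 1000 reads of *Krt8* and *Krt18* gave each gland's level per unit of luminal keratin. *Calca* measured 213.9, 186.0, 224.5, 21.3 and 309.9 in the CFA libraries and 6.01, 7.16, 17.2, 5.26 and 9.39 in the HFA libraries. The diets again did not overlap, with CFA 4 at 21.3 and HFA 3 at 17.2 the nearest pair. Ratios to keratin reads were computed and tested for the members only, without adjustment, so no share over all genes stands beside them. The difference in mean log2 ratio was -4.11 (two-sided exact permutation test, p = 0.00794, the smallest that 5 against 5 libraries can give), and it lay between -4.79 and -3.83 when 1 library was left out.

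Per keratin read *Prlr* was within 499.5 to 885.9 in CFA and 564.5 to 1020 in HFA, a narrower range than in CPM. *Pgr* was at 39.6 to 86.6 in CFA and 27.7 to 193.8 in HFA, where HFA 1, HFA 2, HFA 4 and HFA 5 (111.2) lay above all CFA libraries and HFA 3 below them. The log2 differences were 0.34 for *Prlr* and 0.89 for *Pgr* (two-sided exact permutation p = 0.143 and 0.151), and *Pgr* had 1.37 without HFA 3 (exact p = 0.0159) but 0.66 without HFA 1 (exact p = 0.270). *Greb1* differed by 1.63 (exact p = 0.127), by 2.29 without HFA 3 (exact p = 0.0238) and by 1.07 without HFA 2 (exact p = 0.246).

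*Tnfsf11* measured 32.6, 28.8, 10.2, 0.27 and 108.2 reads per 1000 keratin reads in CFA and 0, 0.61, 0, 0 and 97.6 in HFA. The highest library of each diet, CFA 5 and HFA 5, was one with lymphoid markers and little epithelium. The log2 difference was -4.45 (two-sided exact permutation p = 0.119), -6.30 without HFA 5 (exact p = 0.0238) and -5.77 without CFA 4 (exact p = 0.0476). It was -3.69 without CFA 5, and with 1 library left out its exact permutation p ranged from 0.0238 to 0.190. *Prlr* had 0.48 without CFA 4 (exact p = 0.0317) and 0.23 without HFA 4. With 1 library left out its exact permutation p reached 0.270. Log2 differences of *Esr1*, *Areg*, *Wnt4* and *Tnfrsf11a* lay between -0.36 and -0.04 with exact permutation p from 0.516 to 0.960.

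**Figure D4:**
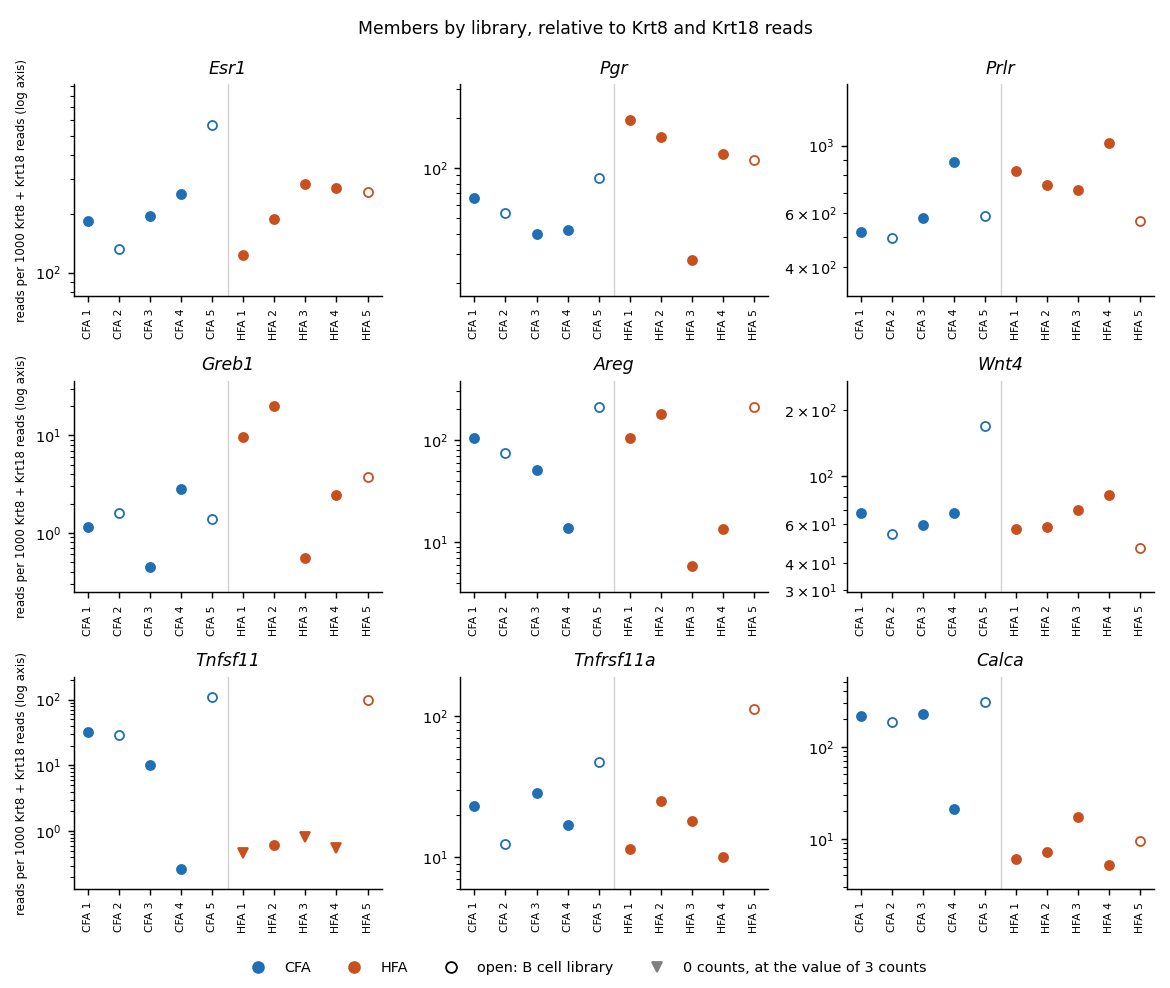
Reads of each member per 1000 reads of *Krt8* and *Krt18* (y, log axis) in each library (x), with colours and symbols as in the plot of CPM by library. *Calca* stays apart between diets (21.3 to 309.9 in CFA, 5.26 to 17.2 in HFA), and *Prlr* draws together.

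Reading the members side by side, 3 combinations recurred among the libraries, given here as values with no test. CFA 1, CFA 2, CFA 3 and CFA 5 held *Calca* at 50.2 to 152.8 CPM together with *Tnfsf11* at 4.49 to 23.7 CPM. HFA 1 and HFA 2 had high *Greb1* (6.97 and 8.45 CPM) and *Areg* (75.5 and 75.7 CPM) with *Calca* at 4.32 and 3.02 CPM. CFA 4, HFA 3 and HFA 4 had *Areg* at 2.98 to 7.37 CPM, *Tnfsf11* at 0 to 0.14 CPM and the highest *Esr1* of all libraries (132.4 to 145.7 CPM). HFA 5, low in epithelium, was not like any of these, with *Tnfsf11* at 13.2 CPM and *Calca* at 1.27 CPM. The combinations were described by different members and shared other values. *Tnfsf11* was also at 0 and 0.26 CPM in HFA 1 and HFA 2, and *Areg* at 56.4 and 60.9 CPM in CFA 1 and CFA 2. CFA 4, HFA 3 and HFA 4 differed in *Pgr* (22.5, 14.2 and 59.2 CPM) and in *Calca* (11.4, 8.80 and 2.56 CPM).

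Per kilobase of exon, the members ranked by median over the 10 libraries as *Areg* (25.9 CPM per kb), *Prlr* (22.2), *Wnt4* (8.60), *Esr1* (7.03), *Calca* (6.00), *Pgr* (3.40), *Tnfrsf11a* (1.63), *Tnfsf11* (1.06) and *Greb1* (0.094). The ranges of all neighbours in this order overlapped. *Prlr* was above *Wnt4* in 9 of the 10 libraries and *Pgr* above *Tnfrsf11a* in 8, whereas *Wnt4* was above *Esr1* in only 4. *Calca* had the widest range, 0.756 to 90.7 CPM per kb, and lay above every other member in CFA 1, CFA 2, CFA 3 and CFA 5.

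The genes nearest in pattern were found by the Pearson correlation of log2 CPM over the 10 libraries, among the about 12568 genes of moderate or high level. They share the diet, the depth, the epithelial content and the lymphoid cells of those libraries. As the highest values of so wide a search over few libraries, these correlations can be high by chance, and none was tested. *Prlr* was most like *Gipc2* (r = 0.983, and 0.967 without the 3 libraries that held B cell markers) and *Slc44a4* (0.976 and 0.980). *Calca* was most like *Slco1a5* (0.939 and 0.955) and *Zbtb7c* (0.931 and 0.982), and *Zbtb7c* measured 15.9 to 23.5 CPM in CFA 1 to CFA 3, 5.35 and 5.15 CPM in CFA 4 and CFA 5 and 2.36 to 4.54 CPM in HFA. *Tnfsf11* was most like *Ubd* (0.962 and 0.940) and *Cytip* (0.945 and 0.978), a gene of lymphocytes and dendritic cells that was highest in HFA 5 at 256.3 CPM. *Cytip* was at 152.4 and 124.1 CPM in CFA 1 and CFA 3, against 22.6 to 43.5 CPM in the other 5 libraries without B cell markers, and *Ubd* at 15.2 and 17.3 CPM against 2.29 to 4.70 CPM. *Cytip* and *Ubd* were picked for their likeness to *Tnfsf11*, so this pattern was built in. *Cytip* was at 198.9 CPM in CFA 2 and 94.3 CPM in CFA 5. The summed T cell markers of CFA 5 were 351.6 CPM, against 13.3 and 11.9 CPM in CFA 1 and CFA 3. The part of lymphoid cells was not tested.

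Among the rest, *Pgr* was most like *Zbtb8a* (0.960 and 0.954) and *Tmed3* (0.944 and 0.965), and *Greb1* like *Zmiz1* (0.933 and 0.946) and *Rasgrf1* (0.902 and 0.922). *Esr1* was most like *Cldn12* (0.954 and 0.920), and *Areg* was most like *Gm9845* (0.919 and 0.934) and *Tdg* (0.878 and 0.891). *Gm9845* spanned only 3.41 to 6.03 CPM and *Tdg* 4.68 to 9.41 CPM, against 2.98 to 75.7 CPM for *Areg*. *Urb2* was among the genes nearest to *Tnfrsf11a* (0.951 and 0.962). *Wnt4* was most like *Ptov1* (0.974 and 0.810) and *Serinc2* (0.967 and 0.676), for both of which the likeness was lower without those 3 libraries.

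Other genes of these pathways were taken from 8 lists of 89 genes, of which 75 were tested. By the edgeR quasi-likelihood test 0 passed the adjusted threshold between diets and 8 had an unadjusted p under 0.05, beside the 7.36% of all genes given above. They were lower in HFA for 32 and higher for 43, beside 6238 lower and 9372 higher over all genes, with a median log2 fold change of 0.03. Positive slopes on epithelial content passed for 12 of the 75 and negative ones for 3, beside the 5.36% and 4.83% of all genes.

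Among nuclear receptors and their cofactors 5 of 15 tested were lower and 10 higher in HFA. The corepressor *Ncor1*, the most abundant, measured 201.6 to 223.3 CPM in CFA and at least 227.8 CPM in every HFA library (log2 fold change 0.18, adjusted p = 0.688), the glucocorticoid receptor *Nr3c1* had 0.14 and *Pgrmc1*, a membrane-associated protein once proposed as a progesterone receptor, -0.08. Slopes on epithelial content passed the threshold for 4 genes of this list, chosen after their values were seen, positive for *Foxa1* (1.25) and *Gata3* (0.78), transcription factors of hormone-sensing and luminal cells, and for the vitamin D receptor *Vdr* (0.91), and negative for the coactivator *Ncoa3* (-0.40). Of 7 oestrogen targets tested, 2 were lower and 5 higher, and *Cxcl12*, *Igfbp4* and *Xbp1* had log2 fold changes of 0.01, 0.20 and 0.07. *Ccnd1*, the gene of cyclin D1, chosen after its values were seen, had -1.03 ± 0.28 (SE, edgeR quasi-likelihood adjusted p = 0.648).

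On the prolactin side 3 of 10 genes were lower and 7 higher, with *Ghr* at 0.00, *Stat5b* at 0.39 and *Stat5a* at 0.27 on the log2 scale. In the RANK pathway 5 of 11 were lower and 6 higher, and the NF-kB genes *Nfkb1*, *Ikbkb* and *Rela* had 0.01, 0.28 and 0.03. Of the amphiregulin pathway 6 of 9 were lower, with *Fgfr1* at 0.18, *Fgfr2* at -0.17 and *Erbb3*, an ErbB family receptor, at -0.25. The calcitonin family had 5 of 5 tested genes higher, beside 9372 of the 15610 genes tested. *Calcrl* was at 0.23, *Ramp1* at 0.24 and *Ramp2* at 0.15, all parts of the receptor for calcitonin gene-related peptide or adrenomedullin. *Calcr*, the gene of the calcitonin receptor, reached at most 0.43 CPM and was not tested. *Calcb*, also not tested, measured 0.412, 0.219, 0.325, 0 and 0.075 CPM in CFA 1 to CFA 5 and 0 CPM in every HFA library. CFA 4 was thus also at 0 CPM. These are levels of few reads, since 3 counts make 0.206 CPM in CFA 1. Of local steroid enzymes 3 were tested, with *Hsd17b7* at 0.03, *Akr1c18* at 1.03 and *Srd5a1* at -1.14.

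In the WNT list 10 of 15 genes tested were lower in HFA and the median on the log2 scale was -0.36, although its most abundant members *Lrp6*, *Fzd4* and *Lrp5* had 0.04, 0.44 and 0.07. Chosen after their values were seen, *Rspo1*, which encodes an R-spondin that strengthens WNT signals, and *Adamts18*, a protease of the myoepithelial response to hormones, had log2 fold changes of -2.64 ± 0.81 and -1.92 ± 0.59 (SE, edgeR quasi-likelihood adjusted p = 0.648 for both). *Rspo1* measured 30.8, 20.2, 24.6, 6.29 and 4.403 CPM in the CFA libraries and 1.88, 2.59, 8.66, 0.64 and 0.57 CPM in the HFA libraries. *Tnfrsf11b*, the decoy receptor of RANKL, was also seen lower, at 1.64 to 9.10 CPM in CFA and 1.01 to 1.70 CPM in HFA (-1.83 ± 0.44 SE, adjusted p = 0.582). In each of these 3 genes CFA 1, CFA 2 and CFA 3 were the highest libraries.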

How the data were processed

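The authors' deposited values were raw counts of reads per gene, 1 list per library of 46983 Ensembl genes and 5 HTSeq summary lines, with no normalization. Per the labels and the study's methods, paired reads from a TruSeq v2 kit were aligned with TopHat 2.0.14 and Bowtie 2.2.5 to GRCm38 (mm10) and counted with HTSeq 0.6.1 on Ensembl release 83. The strand setting is not given in the sources used here. Reads with more than 1 alignment, 28.8% to 33.9% of the counted lines, and those on no gene, 3.43% to 5.47%, were left out of library sizes. *Prlr* shares 203 exonic bases (1.32% of its length) with *Gm21973*. Reads there may not all be counted for *Prlr*.

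Symbols and exonic lengths came from GENCODE M21 (46488 identifiers matched). In R 4.3.3, edgeR 4.0.16 (filterByExpr, TMM, quasi-likelihood) compared HFA with CFA over 10 libraries without covariates, since cage is not in the labels, then with epithelial content as a term. Benjamini-Hochberg adjustment covered 15610 genes at 0.05. CPM are TMM-scaled, log2 CPM used a prior count of 2, and log2 ratios 0.5 added reads. DESeq2 1.42.0 and limma 3.58.1 were alternatives. Scripts were tested on simulated data. By the study's methods each library is 1 mouse, and no 2 were copies (highest correlation between libraries 0.986). Named genes are all members, the 3 most abundant of each list, those said to be chosen after their values were seen, and the 2 nearest in pattern with an average log2 CPM of at least 2, of which some are not reported here. Members and lists were chosen with earlier results of these data known.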

Additional observations from a re-analysis of the deposited data

Results flagged for a closer look

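In 6 of the 40 groups of 5 libraries tested for an outlier, 1 library stood apart from the nearest other by more than 0.71 of the group's range, and chance marks about 1 group in 20. *Tnfsf11* in HFA 5 was at 13.2 CPM, with the next HFA library at 0.259 CPM, and at 97.6 reads per 1000 keratin (*Krt8* and *Krt18*) reads, with the next at 0.613. *Tnfrsf11a* in HFA 5 was at 111.2 reads per 1000 keratin reads, with the next at 25.2. HFA 5 also had the highest B and T cell markers and the lowest epithelial content. In CFA 5, the CFA library of lowest epithelial content, *Esr1* was at 565.8 reads per 1000 keratin reads (next 252.4) and *Wnt4* at 169.4 (next 67.8). *Prlr* in CFA 4 was at 885.9 reads per 1000 keratin reads (next 588.9).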

How the results depend on the processing

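Of 735 recomputed values, 630 kept direction and side of the threshold or, for counts, stayed within 1.5 times the original. The number of genes called between diets (0 at first) was 33 in the likelihood ratio fit, 60 with DESeq2, 1037 under quality-weighted voom, 3 with a term for B and T cell markers, 1 with one for adipocyte markers, 469 without the 3 libraries with B cell markers (chosen after seeing the data) and 0 to 6 with 1 library left out. At equal epithelial content (1 gene) it was 229 by DESeq2, 0 with the keratin offset, 0 with the second title digit, 5 with the B and T cell term and 0 to 1219 with 1 library left out. For the slope (1591 genes) it was 3124 by DESeq2, 8 with the B and T cell term, 0 without the 3 libraries and 1 to 3699 with 1 left out. Members with an unadjusted exact permutation p under 0.05 per keratin read (1) were 2 with 6 other epithelial markers as the denominator and 1 to 3 with 1 library left out. These counts have no share over all genes to be read against, since only members were tested per keratin read.

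Signs turned between diets for *Areg* by limma voom (-0.36), with weights (-0.11) and with the second title digit (-0.23). The *Areg* sign also turned with the block of further title digits, fitted without CFA 4 and HFA 1 (-1.30). Signs turned for *Wnt4* by limma voom with weights (0.014), and for *Prlr* with the B and T cell term (-0.14) or the adipocyte term (-0.17). Without the 3 libraries they turned for *Esr1* (0.054) and *Wnt4* (0.091). At equal epithelial content they turned for *Areg* by limma voom (-0.36) and with the second title digit (-0.58), for *Tnfrsf11a* with the offset (0.45), and without the 3 libraries for *Esr1* (0.054) and *Wnt4* (0.065). The *Esr1* slope was -0.022 without them. Per keratin read the sign turned for *Tnfrsf11a* over *Krt8* alone (0.012), over 6 other markers for *Esr1* (0.23), *Wnt4* (0.047) and *Tnfrsf11a* (0.31), and without the 3 libraries for *Wnt4* (0.026). With 1 library left out, diet fold changes spanned -0.35 to 0.37 for *Areg*, -0.38 to 0.047 for *Tnfrsf11a* and -0.32 to 0.048 for *Esr1*. At equal epithelial content they spanned -0.31 to 0.10 for *Esr1*, -0.31 to 0.41 for *Areg* and -0.45 to 0.10 for *Wnt4*. Slopes spanned -2.49 to 0.0095 for *Tnfsf11* and -0.40 to 0.21 for *Tnfrsf11a*, and differences per keratin read -0.31 to 0.21 for *Esr1*, -0.92 to 0.41 for *Areg* and -0.61 to 0.25 for *Tnfrsf11a*. The cause of these turns was not tested. A member that did not pass the filter in a subset of libraries has no value there. *Calca* kept its sign throughout (-4.97 to -4.07 between diets).

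The further title digits were used as a stand-in for a replicate block over 4 pairs. Same-numbered libraries deviated together in only some pairs (correlations 0.298, -0.294, 0.111 and 0.410), so the digits were not taken to pair the samples. CFA 4 and HFA 1 had no partner and were not among the 4 pairs. With this block 0 genes were called, *Pgr* had 0.32 and *Calca* had -4.97 (edgeR quasi-likelihood adjusted p = 0.0620). The change of libraries and the block term cannot be told apart here. Without HFA 1 alone and with no block *Pgr* had 0.53, and without CFA 4 alone *Calca* had -4.74. Depth limits *Greb1* and *Tnfsf11*, with 2 to 98 and 0 to 258 reads per library.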

Other observations

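The milk casein genes *Csn2* and *Csn1s1* were low in all 10 glands and were not tested. *Csn2*, beta-casein, measured 8.52, 0.548, 5.53, 0.217 and 1.34 CPM in CFA 1 to CFA 5 and 0, 0.0863, 0, 0 and 0.318 CPM in HFA 1 to HFA 5. *Csn1s1*, an alpha-casein, measured 6.80, 0.329, 5.66, 0.0723 and 1.57 CPM and 0, 0.0863, 0.284, 0.0914 and 0.127 CPM in the same order. CFA 1 and CFA 3, the highest for *Csn2* and *Csn1s1*, were also among the libraries of high *Calca*. CFA 2, the highest for *Calca* at 152.8 CPM, had only 0.548 CPM of *Csn2*. A further casein gene, *Csn3*, listed with the luminal progenitor markers, was tested. It measured 13.7 to 67.6 CPM in CFA and 9.10 to 47.5 CPM in HFA (log2 fold change -0.58, edgeR quasi-likelihood adjusted p = 0.794). The hormone-sensing cell marker *Cited1* was at 13.0 to 87.5 CPM in CFA and 4.39 to 37.6 CPM in HFA (log2 fold change -1.47 ± 0.62 SE, edgeR quasi-likelihood adjusted p = 0.662), chosen after its values were seen. The 3 other markers of these cells had log2 fold changes of 0.58 (*Prom1*), -0.15 (*Foxa1*) and -0.05 (*Tbx3*), and the median of the list was -0.10.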
